A study of Mus musculus with 36 samples.

Results

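The TNF, IL-1 and IL-6 ligands and receptors were followed in epididymal white adipose tissue (eWAT) as 10 genes, *Tnf*, *Il1b*, *Il6*, *Il18*, *Il1rn*, *Il1r1*, *Il6ra*, *Il6st*, *Tnfrsf1a* and *Tnfrsf1b*. They were chosen by symbol through the Ensembl identifier of each gene in the normalized counts table, and each of the 10 matched exactly 1 of its 24750 genes. RNA was sequenced in bulk from eWAT of 36 male mice, in 12 groups of 3. The question was how a knock-in of the chemokine *Ccl19* in adipocytes, high-fat feeding and ligature-induced periodontitis (LIP) bear on fat tissue. From 6 weeks of age WT and CCL19-KI mice ate ND (the normal diet), or HFD with 40% or 60% fat (40% HFD, 60% HFD), and at 14 weeks, after 8 weeks of feeding, 18 of the mice received a tooth ligature. Tissue was taken at 16 weeks, and every combination of genotype, diet and ligature held 3 mice. The description of the series words the ligature as if all mice had it, while the labels of the libraries give it to 18 of 36; the labels were followed, and each comparison by ligature rests on them. In CCL19-KI mice *Ccl19* was placed in the *Adipoq* locus by CRISPR, and the line was homozygous and bred among itself. WT mice were bred apart from it, so litter or line and genotype cannot be told apart, and all mice were males.

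TNF, IL-1β and IL-6 are the classic inflammatory cytokines of obese fat, made largely by macrophages there and also by fat cells and stromal cells. TNF acts through a widely expressed receptor, TNFR1 (*Tnfrsf1a*), and through TNFR2 (*Tnfrsf1b*), which is prominent on immune and endothelial cells; IL-1β acts through IL-1R1, where the IL-1 receptor antagonist (*Il1rn*) competes with it for binding. IL-6 binds IL-6Rα (*Il6ra*) and signals through gp130 (*Il6st*), which other cytokines of the family share, while IL-18 is an IL-1 family cytokine released after cleavage by inflammasome caspases.

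Values are CPM, read counts scaled to library size, as normalized by the study's authors. Each library held 11962228 to 21581595 reads, with a median of 15573273, so that 1 read stood for 0.0472 to 0.0834 CPM. A count of 0 allowed up to 3 reads, which was 0.142 to 0.250 CPM, and this floor covers counting error only. Libraries differed by more than counting error: the chi-squared per degree of freedom between libraries of the same group was 15.3 to 333 over 36 pairs.

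Both marks of the knock-in went against the genotype label in 2 libraries. The library labelled ND WT without ligature, replicate 2, had *Ccl19* at 19.2 CPM and the gene model *Gm2564* at 41.9 CPM, while the other WT libraries had *Ccl19* at 0.507 to 4.51 CPM and *Gm2564* at 0 or 0.160 CPM. The library labelled 60% HFD CCL19-KI without ligature, replicate 3, had *Ccl19* at 0.687 CPM and *Gm2564* at 0 CPM, while the other CCL19-KI libraries had 5.57 to 34.6 and 11.6 to 108 CPM. *Adipoq*, the host locus, was at 751 CPM in the former and 1095 CPM in the latter, and was lower in CCL19-KI than in WT mice by a log2 fold change of −1.75 (SE 0.21), or −1.94 without these 2 libraries. Whether these 2 libraries were exchanged for each other was not tested, and an exchange would make their diet labels wrong too. All libraries are kept under their labels. Calls of members that changed without these 2, and the main correlations with cell markers, are given both ways, while other values rest on all 36.

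Markers of neighbouring organs also differed between libraries. The mean log2(CPM + 1) of 8 hepatocyte markers ran from 2.00 to 11.24, and their summed level from 131 to 39035 CPM, with *Alb*, the plasma protein albumin, the most abundant at up to 26901 CPM. Its median was 6.02 in ND, 9.70 in 40% HFD and 9.5 in 60% HFD mice, and 6 of 8 hepatocyte markers rose in each HFD against ND, while 18.6% of all tested genes passed for 60% HFD and 9.21% for 40% HFD. Epididymis markers had a median of 0.229, but were at 8.66 in ND WT without ligature, replicate 2, and at 6.11 and 3.96 in replicates 2 and 3 of 60% HFD CCL19-KI without ligature. Their summed level was 0 to 9573 CPM, with the sperm-coating protein gene *Crisp1* at up to 9541 CPM.

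**Figure D1:**
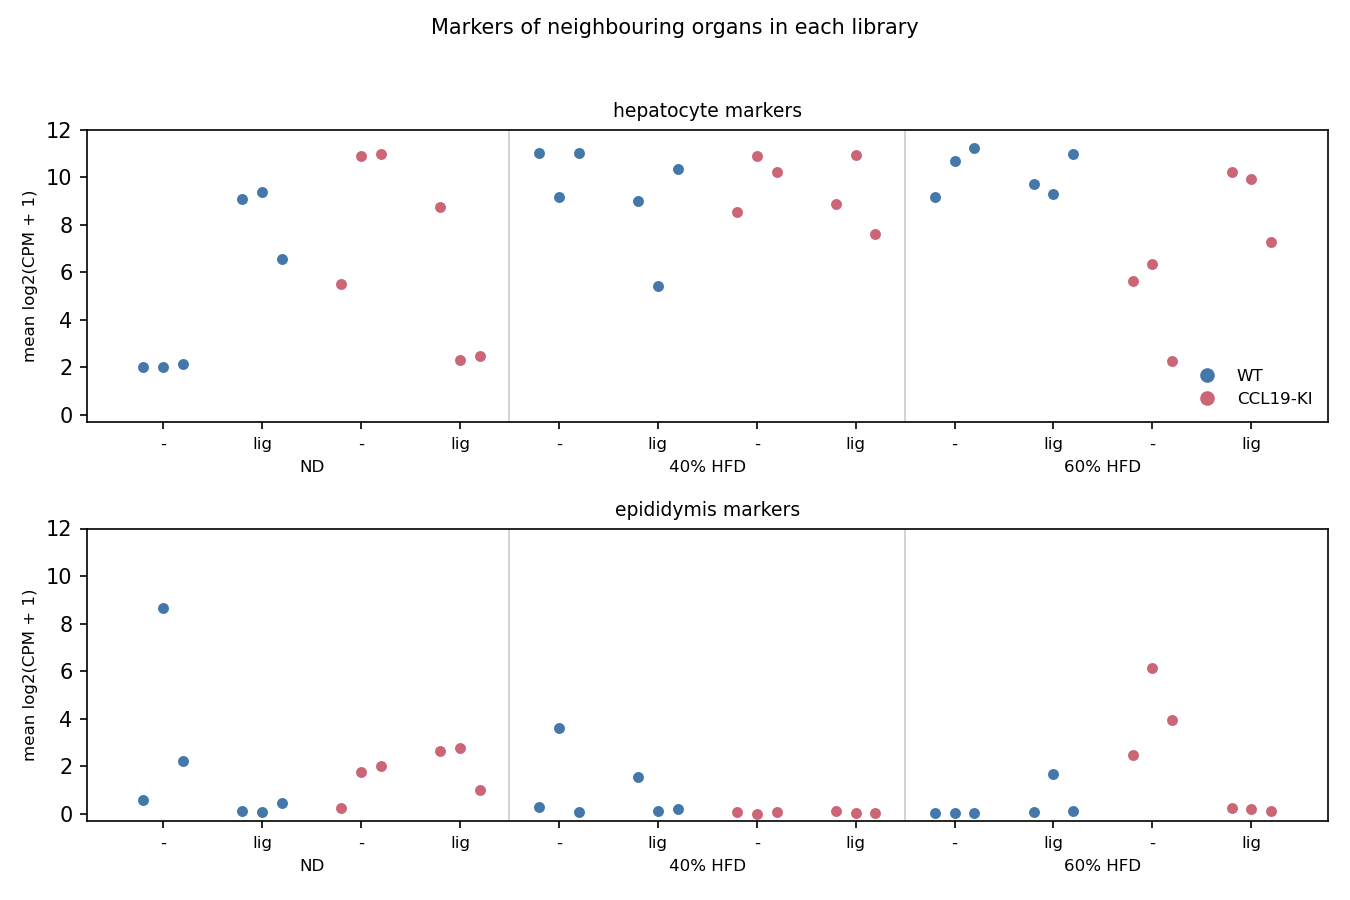
Mean log2(CPM + 1) of the markers of neighbouring organs in each of the 36 libraries, by group. Hepatocyte markers spanned 2.00 to 11.24, and epididymis markers reached 8.66 in 1 ND WT library without ligature.

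The receptors were expressed well above *Tnf*, *Il1b* and *Il6*. Per kilobase of exon, the median over the 36 libraries was 35.1 CPM for *Tnfrsf1a*, 34.4 for *Il6st*, 13.4 for *Tnfrsf1b*, 8.61 for *Il6ra* and 6.17 for *Il1r1*. Among secreted members *Il18* stood apart at 8.86 CPM per kilobase, against 0.535 for *Il1rn*, 0.236 for *Il1b*, 0.226 for *Tnf* and 0.0268 for *Il6*. The 3 cytokines *Tnf*, *Il1b* and *Il6* were below 1 CPM in most libraries. *Tnf* reached 1 CPM in 6 of 36 libraries, *Il1b* in 6, *Il6* in 0 and *Il1rn* in 29, while the other 6 members did so in all 36. Genes with at least 1 CPM in at least 3 libraries were tested, which kept 17852 genes and 9 of the 10 members, all but *Il6*. *Tnf* and *Il1b* passed through few libraries, most of them on 60% HFD for *Tnf* and on 40% HFD for *Il1b*, and their fold changes rest on 0 to 31 and 1 to 29 reads per library.

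The 10 genes lie on 9 chromosomes, with *Il1b* and *Il1rn* both on chromosome 2, at these positions of GRCm38. *Tnf* (ENSMUSG00000024401) lies at chr17:35199381-35202007 on the minus strand. *Il1b* (ENSMUSG00000027398) lies at chr2:129364570-129371139, minus, and *Il1rn* (ENSMUSG00000026981) at chr2:24336853-24351494, plus. *Il6* (ENSMUSG00000025746) lies at chr5:30013114-30019981, plus, and *Il18* (ENSMUSG00000039217) at chr9:50554827-50581840, plus. Of the receptors, *Il1r1* (ENSMUSG00000026072) lies at chr1:40225080-40317257, plus, and *Il6ra* (ENSMUSG00000027947) at chr3:89864059-89913196, minus. *Il6st* (ENSMUSG00000021756) lies at chr13:112464070-112510086, plus. The TNF receptor genes are *Tnfrsf1a* (ENSMUSG00000030341) at chr6:125349362-125362484, plus, and *Tnfrsf1b* (ENSMUSG00000028599) at chr4:145213463-145246870, minus.

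The bases before the start of *Tnf* and *Il1rn* are shown because these genes moved together over the libraries, and those of *Il6* because it is the member with the fewest reads. All 10 members had promoters in RefSeq (GRCm38.p6), and 5 motifs were searched on both strands from 250 bases before to 50 after each start. The NF-kB motif GGANNTTCC was in 2 of 10 members, *Tnf* and *Il6*, and in 4.26% of 32851 promoters. A longer form with a G before it was searched first and was in 1 member, *Il6*. The STAT motif TTCNNNGAA was in 2, *Tnfrsf1a* and *Tnfrsf1b*, against 8.3% of all promoters. The AP-1 motif TGANTCA was in 2, *Il6* and *Il1rn*, against 7.81%, the ETS (PU.1) motif GAGGAAGT in 0, against 3.2%, and the C/EBP motif TTGNNNAA in 7, against 36.7%. A member counted if any of its starts had a match, while the shares are of single promoters. The C/EBP matches of *Il1rn* lie at its later starts only. Capitals mark matches: in *Tnf* an NF-kB and a C/EBP match, in *Il6* the AP-1, C/EBP and NF-kB matches, and in *Il1rn* the AP-1 match. The 250 bases lie at chr17:35202008-35202257 (minus), chr5:30012864-30013113 (plus) and chr2:24336610-24336859 (plus, the first of 3 starts).
Tnf: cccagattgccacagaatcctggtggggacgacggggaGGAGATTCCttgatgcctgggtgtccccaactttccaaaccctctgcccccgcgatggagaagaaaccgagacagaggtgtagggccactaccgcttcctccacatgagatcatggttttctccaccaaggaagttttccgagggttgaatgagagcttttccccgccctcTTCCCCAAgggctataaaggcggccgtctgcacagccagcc
Il6: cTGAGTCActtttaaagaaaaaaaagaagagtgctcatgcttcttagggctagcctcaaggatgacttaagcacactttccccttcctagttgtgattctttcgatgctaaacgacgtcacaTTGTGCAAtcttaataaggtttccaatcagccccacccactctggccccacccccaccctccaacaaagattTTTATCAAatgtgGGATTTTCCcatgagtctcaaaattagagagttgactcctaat
Il1rn: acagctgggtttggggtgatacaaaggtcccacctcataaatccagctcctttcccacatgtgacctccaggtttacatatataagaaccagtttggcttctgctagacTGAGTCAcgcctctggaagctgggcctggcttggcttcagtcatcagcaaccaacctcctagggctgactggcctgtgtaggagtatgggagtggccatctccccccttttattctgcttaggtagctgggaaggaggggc

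*Tnf* was low in every group and highest in the mice on 60% HFD, and its difference from ND missed the threshold. Its mean was 0.361 ± 0.448 CPM (SD, n = 12) in ND, 0.407 ± 0.288 in 40% HFD and 0.764 ± 0.428 in 60% HFD mice. In ND mice without ligature it was 1.69, 0.0557 and 0.4 CPM in WT and 0.189, 0.270 and 0.177 CPM in CCL19-KI. With ligature it was 0, 0.203 and 0.155 CPM in ND WT and 0.212, 0.614 and 0.368 CPM in ND CCL19-KI. The high value of ND WT without ligature, replicate 1, was above every other library. On 40% HFD it was 0.150, 0.193 and 0.455 CPM in WT without and 0.659, 1.01 and 0.321 CPM in WT with ligature. In CCL19-KI mice on 40% HFD it was 0.122, 0.468 and 0.502 CPM without and 0.301, 0.707 and 0 CPM with ligature. These groups overlapped throughout. On 60% HFD, WT mice had 0.67, 0.334 and 0.538 CPM without and 0.194, 0.963 and 1.26 CPM with ligature. Their CCL19-KI counterparts on 60% HFD had 1.19, 0.721 and 0.344 CPM without and 1.08, 1.5 and 0.373 CPM with ligature. Of the 6 libraries at 1 CPM or more, 4 were from 60% HFD, 1 from 40% HFD and 1 from ND. Group means ran from 0.119 CPM in ND WT to 0.983 CPM in 60% HFD CCL19-KI mice, both with ligature. The lower mean rested on 6 reads and lay under the floor of every library, so no fold is given. All 11 neighbouring pairs in the order of group means overlapped. In limma, *Tnf* differed by 0.39 on the log2 scale between 60% HFD and ND mice (adjusted p 0.0564). It met the filter of 3 libraries at 1 CPM only through the 60% HFD group, where it was high, so this difference is a description and its calls below support nothing further. Over the alternatives it ran from 0.11 to 1.3, with an adjusted p of 0.0267 to 0.214, and passed with a pseudocount of 0.1 (1.12, adjusted p 0.0422), with sample weights (0.32, 0.0267) and in ligatured mice alone (0.56, 0.0420). It also passed when 1 of 4 libraries was left out: 0.48 without ND WT without ligature, replicate 1 (adjusted p 0.0101), 0.46 without 60% HFD WT with ligature, replicate 1 (0.0289), 0.43 without 60% HFD CCL19-KI without ligature, replicate 3 (0.0395), and 0.45 without 60% HFD CCL19-KI with ligature, replicate 3 (0.0293).

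*Il1b*, the main secreted IL-1 in inflamed tissue, was low in every group, and its differences by diet missed the threshold. It averaged 0.382 ± 0.265 CPM in ND, 0.745 ± 0.588 in 40% HFD and 0.602 ± 0.279 in 60% HFD mice (SD, n = 12). Its highest value, 2.18 CPM, came from 40% HFD WT without ligature, replicate 1, and 4 of the 6 libraries at 1 CPM or more were from 40% HFD. Group means spanned 3.87-fold, and all 11 neighbouring pairs overlapped. The log2 fold change of 40% HFD against ND was 0.29 (unadjusted p 0.041, adjusted p 0.168, limma). It met the filter only through the 40% HFD group, where it was high, so this difference too is a description.

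*Il6* was near the limit of detection. It had 55 reads over all 36 libraries, at most 8 in 1 library, and none in 12 libraries, with a highest value of 0.619 CPM. Its mean was 0.107 ± 0.189 CPM in ND, 0.124 ± 0.0903 in 40% HFD and 0.0733 ± 0.0678 in 60% HFD mice (SD, n = 12), all under the floor of every library. In the 5 averaged comparisons its log2 differences were −0.06 to 0.03, with adjusted p of 0.703 to 0.874 by 2-sided permutation tests, and 0.687 to 0.985 without the 2 libraries. A change of *Il6* was not detectable at this depth.

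*Il18* was the most abundant ligand. In WT mice it was higher with than without ligature on ND and lower on 40% HFD, but the test of the difference of these ligature effects, averaged over genotype, did not pass (−0.99, adjusted p 0.270, limma), except with sample weights (0.00372) or by the study's cut-offs on unadjusted p and ratio. Among ND mice it was lowest in unligatured WT, at 5.76, 3.28 and 7.05 CPM, against 16.5, 8.59 and 9.61 CPM in unligatured CCL19-KI. With ligature it was 11.7, 13.3 and 11.8 CPM in ND WT and 12.2, 12.1 and 9.44 CPM in ND CCL19-KI. Every ND WT mouse with ligature was above every ND WT mouse without. There 4 of 9 tested members had no overlap, against 29.5% of all tested genes. The mean log2(CPM + 1) of mesothelial markers was 5.68 to 6.10 in ND WT mice without and 7.28 to 7.52 with ligature. On 40% HFD it was 13.1, 9.59 and 11.3 CPM in WT without and 8.86, 7.46 and 6.26 CPM in WT with ligature. In CCL19-KI mice on 40% HFD it was 9.78, 8.09 and 10.5 CPM without and 6.47, 5.66 and 10.1 CPM with ligature. Here ligatured WT mice were below unligatured ones with no overlap, 1 of 9 members against 15.5% of genes. Their mesothelial markers were at 6.33 to 7.26 without and 5.08 to 6.93 with ligature. The part of mesothelial cells in these differences of *Il18* was not tested. On 60% HFD it was 6.37, 11.1 and 10.3 CPM in WT without and 6.41, 7.07 and 9.41 CPM in WT with ligature. Their CCL19-KI counterparts on 60% HFD had 13.2, 6.78 and 3.04 CPM without and 4.36, 6.88 and 5.07 CPM with ligature. Diet means were 10.1 ± 3.60 CPM in ND, 8.93 ± 2.23 in 40% HFD and 7.5 ± 2.96 in 60% HFD mice (SD, n = 12). Group means spanned 2.28-fold from ND WT without to ND WT with ligature, and all 11 neighbouring pairs overlapped.

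*Il1rn*, the natural brake on IL-1 signalling, was the member that moved most with diet. It averaged 3.38 ± 5.53 CPM in ND, 3.39 ± 2.85 in 40% HFD and 11.1 ± 8.66 in 60% HFD mice (SD, n = 12), with medians of 1.00, 2.66 and 9.29 CPM. In ND mice without ligature it was 19.5, 1.22 and 0.95 CPM in WT and 2.41, 7.78 and 4.78 CPM in CCL19-KI. With ligature it was 0.552, 0.557 and 0.774 CPM in ND WT and 1.06, 0.553 and 0.429 CPM in ND CCL19-KI. The ND mice with ligature were uniformly low, and 19.5 CPM was the highest value among ND libraries. On 40% HFD it was 5.18, 2.19 and 1.29 CPM in WT without and 1.68, 3.04 and 0.963 CPM in WT with ligature. In CCL19-KI mice on 40% HFD it was 2.43, 5.02 and 2.89 CPM without and 3.76, 11.2 and 1.02 CPM with ligature. Both genotypes overlapped there. On 60% HFD it was 16.6, 5.42 and 9.91 CPM in WT without and 3.69, 8.67 and 31.4 CPM in WT with ligature. Their CCL19-KI counterparts on 60% HFD had 6.25, 12.4 and 1.72 CPM without and 13.6, 21.0 and 2.68 CPM with ligature. Among ligatured mice, all 6 on 60% HFD (2.68 to 31.4 CPM) lay above all 6 on ND (0.429 to 1.06 CPM). Between these 6 and 6 mice 2 of 9 members did not overlap, *Il1rn* and *Il18*, against 12.4% of all tested genes. Among unligatured mice, 60% HFD (1.72 to 16.6 CPM) and ND (0.95 to 19.5 CPM) overlapped. Group means spanned 23.2-fold, from ND WT with ligature to 60% HFD WT with ligature, and all 11 neighbouring pairs overlapped.

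**Figure D2:**
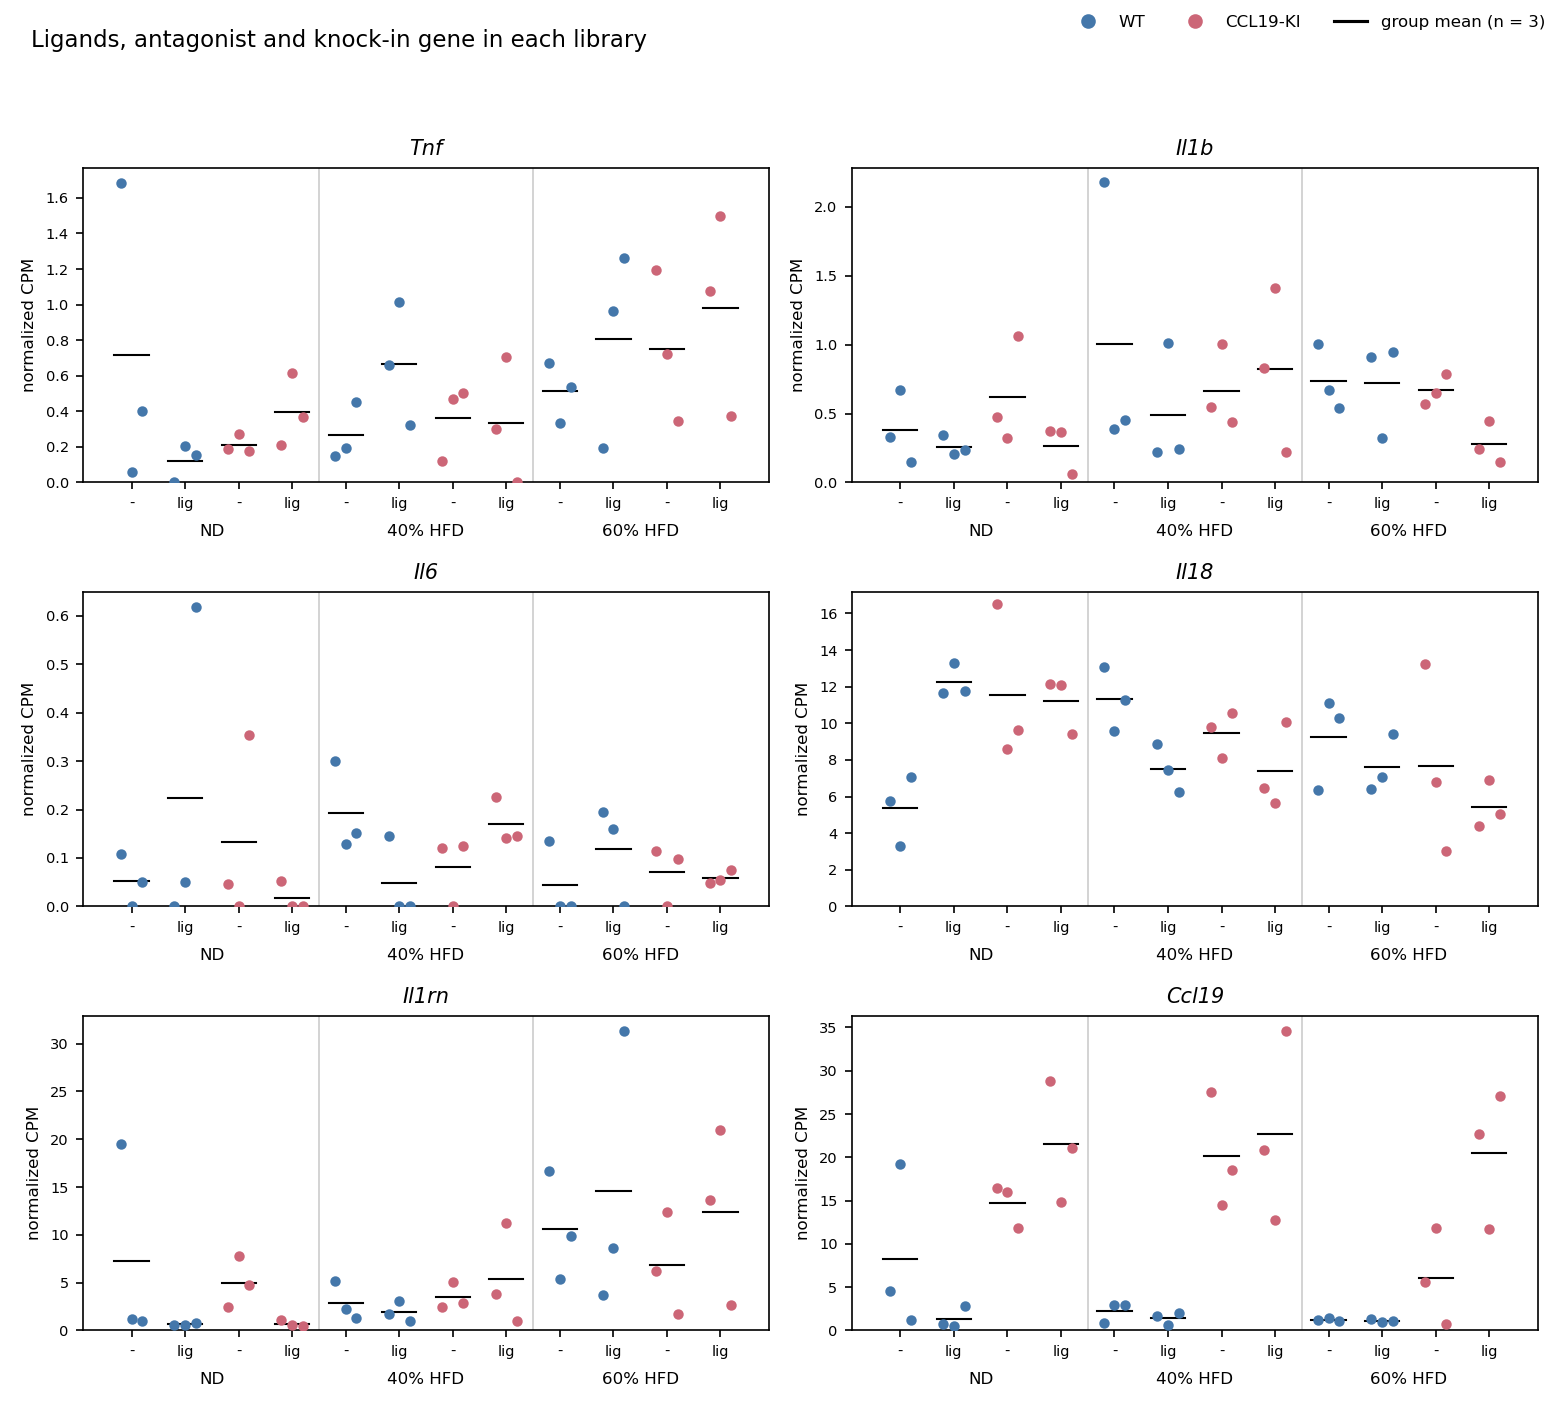
CPM of the ligands, of *Il1rn* and of *Ccl19* in each of the 36 libraries, with WT in blue, CCL19-KI in red, bars at group means (n = 3), "-" for no ligature and "lig" for ligature. *Il1rn* was 2.68 to 31.4 CPM in ligatured 60% HFD mice and 0.429 to 1.06 CPM in ligatured ND mice.

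*Tnfrsf1a*, the death-domain receptor of TNF, was lower in CCL19-KI than WT mice on ND. Its diet means were 96.1 ± 20.3 CPM in ND, 92.1 ± 11.9 in 40% HFD and 85.2 ± 9.74 in 60% HFD mice (SD, n = 12). In WT mice they were 111.5, 93.8 and 87.7 CPM, and in CCL19-KI mice 80.7, 90.3 and 82.7 CPM (n = 6). In ND mice without ligature it was 110, 98.6 and 131 CPM in WT and 84.0, 61.4 and 69.8 CPM in CCL19-KI. With ligature it was 110, 101 and 118 CPM in ND WT and 99.0, 79.1 and 90.8 CPM in ND CCL19-KI. All CCL19-KI values were below all WT values in both ND settings. On 40% HFD it was 69.4, 104 and 99.2 CPM in WT without and 94.2, 101 and 96.1 CPM in WT with ligature. In CCL19-KI mice on 40% HFD it was 95.4, 75.6 and 88.5 CPM without and 95.4, 78.1 and 109 CPM with ligature. On 40% HFD both genotypes overlapped. On 60% HFD it was 88.6, 80.6 and 86.2 CPM in WT without and 103, 96.3 and 71.5 CPM in WT with ligature. Their CCL19-KI counterparts on 60% HFD had 69.1, 76.6 and 85.9 CPM without and 88.3, 91.0 and 85.6 CPM with ligature, and these groups overlapped too. It averaged 97.7 ± 15.3 CPM in WT and 84.6 ± 11.8 CPM in CCL19-KI mice (SD, n = 18). Group means spanned 1.58-fold, from ND CCL19-KI to ND WT, both without ligature, and 10 of 11 neighbouring pairs overlapped.

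The group means of the other receptors spanned 1.41- to 2.11-fold. *Tnfrsf1b* ran from 34.3 to 76.3 CPM, with diet means of 49.8 ± 12.2 in ND, 50.7 ± 9.97 in 40% HFD and 58.4 ± 8.60 in 60% HFD mice (SD, n = 12). *Il1r1*, the signalling receptor of IL-1, ran from 26.3 to 79.3 CPM, the highest value being that of 60% HFD CCL19-KI without ligature, replicate 3, and its diet means were 39.5 to 43.8 CPM. *Il6ra* ran from 36.8 CPM, in that same library, to 151 CPM, and its highest values were the 151 and 147 CPM of ND WT with ligature, replicates 1 and 2, whose replicate 3 had 63.4 CPM. *Il6st*, the shared signal transducer of the IL-6 family, ran from 305 to 632 CPM. It was highest in ND WT mice with ligature, at 632, 508 and 479 CPM, against 443, 422 and 394 CPM in ND CCL19-KI mice with ligature. These groups did not overlap. From the lowest to the highest group mean, *Il6ra* spanned 2.11-fold, *Il6st* 1.57-fold, *Il1r1* 1.45-fold and *Tnfrsf1b* 1.41-fold, and all 11 neighbouring pairs overlapped for each.

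**Figure D3:**
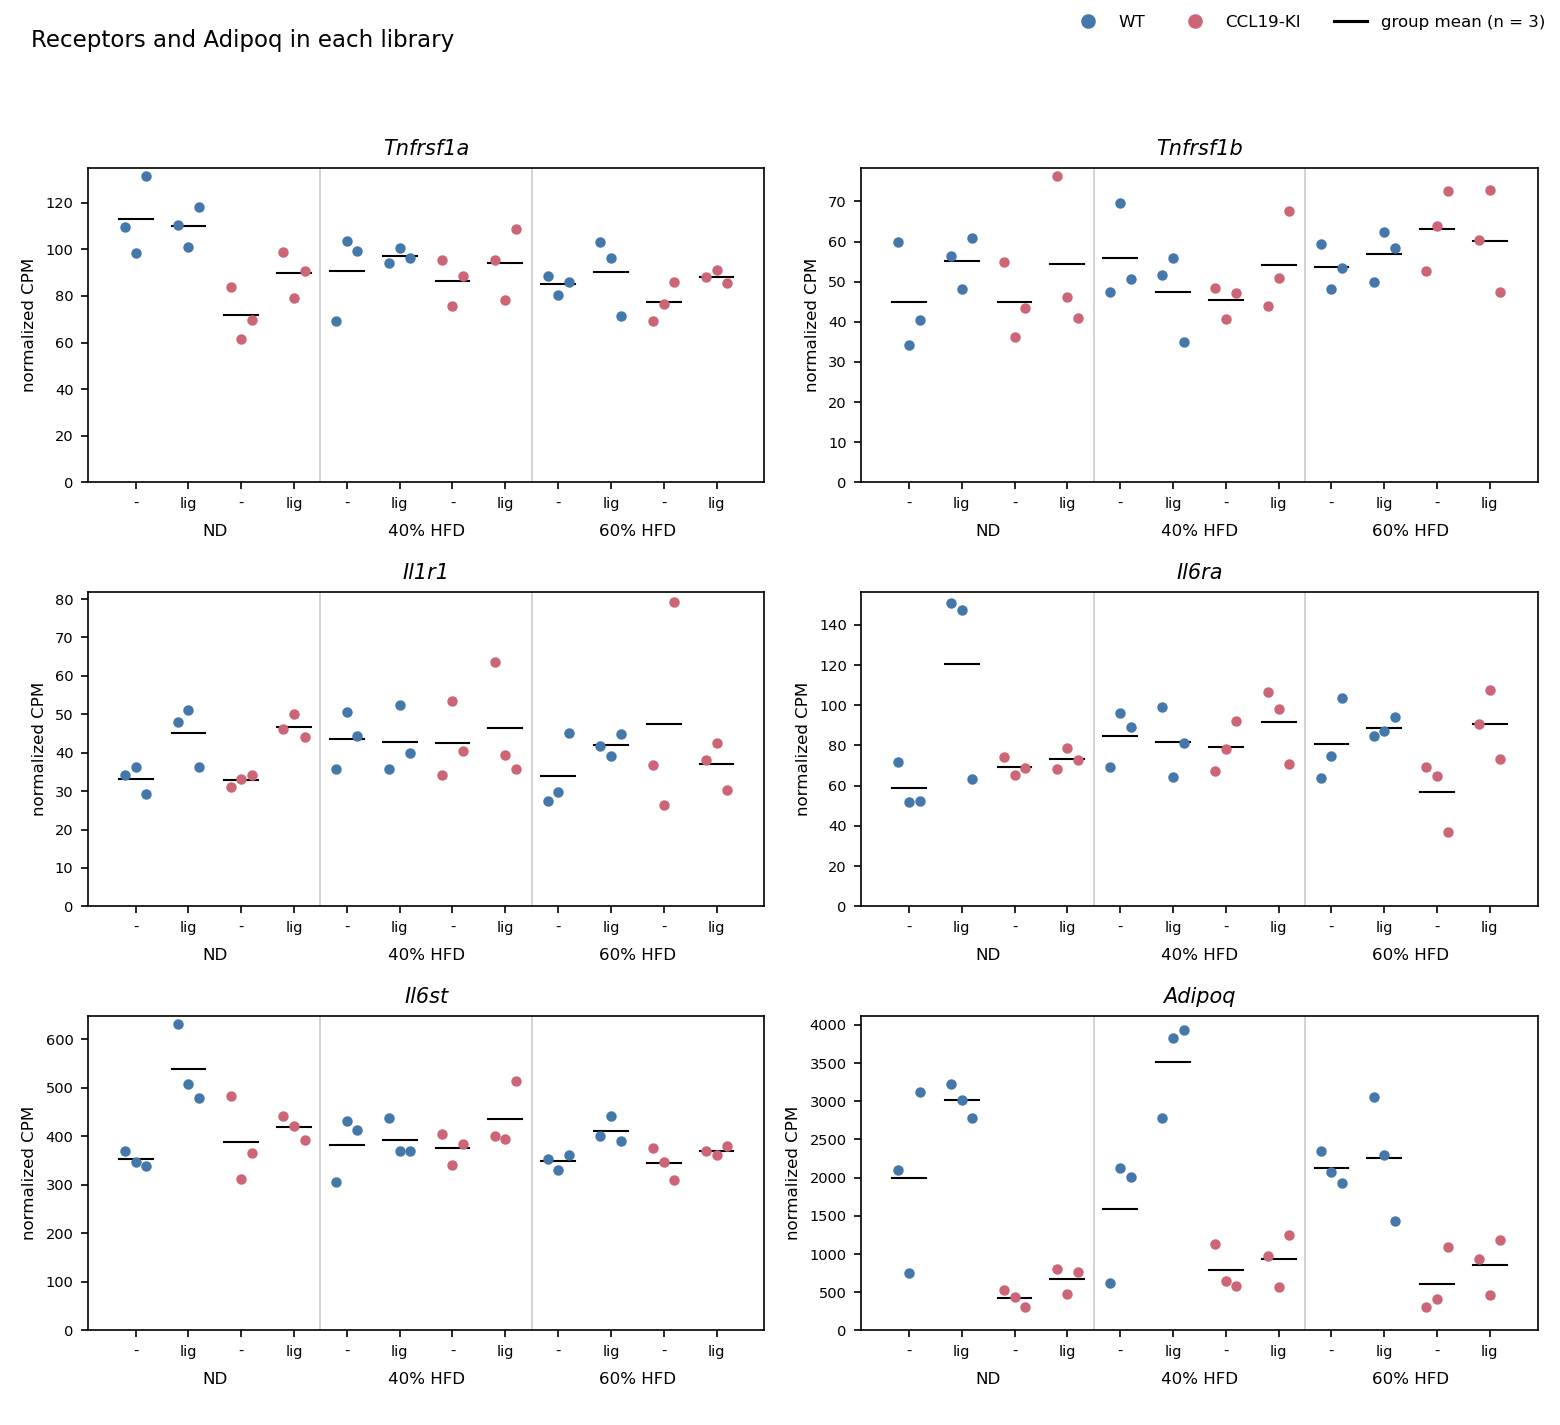
CPM of the receptors and of *Adipoq* in each of the 36 libraries, with WT in blue, CCL19-KI in red and bars at group means (n = 3). *Tnfrsf1a* was 61.4 to 84.0 CPM in ND CCL19-KI and 98.6 to 131 CPM in ND WT mice, both without ligature.

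Feeding 60% HFD in place of ND, averaged over genotype and ligature, raised *Il1rn* by a log2 fold change of 1.74 (SE 0.40, adjusted p 0.00461, limma). It was the 1 of 9 tested members that passed, while 18.6% of all tested genes did. At an unadjusted p below 0.05 there were 5 members: beside *Il1rn*, *Tnf* at 0.39, tested through that diet's libraries, *Tnfrsf1b* at 0.25 (adjusted p 0.128), *Il6st* at −0.18 (0.0831) and *Il18* at −0.38 (0.0850). For counts at an unadjusted p below 0.05, here and below, no share of all genes is given, so they are descriptions only. By edgeR 1 member passed too, *Il1rn* at 2.42 (adjusted p 0.00281). *Il1rn* passed in all 36 fits that left out 1 library, at 1.55 to 2.01, and without the 2 libraries against their labels it was 1.77 (adjusted p 0.00675). In a fit of ligatured mice alone it was 2.74 (adjusted p 0.0017), and in a fit of unligatured mice alone 0.74 (adjusted p 0.969), where 2 of 16923 genes passed. The difference between these effects, tested over all mice, was 2.00 (adjusted p 0.257). With the hepatocyte marker score as a covariate it was 1.24 (adjusted p 0.0665). Over all alternatives its adjusted p ran from 4.48e-05 to 0.969. In bulk tissue, a change in the number of cells of a type and a change in RNA per cell cannot be told apart.

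Leaving out 1 library brought other members past the threshold for 60% HFD against ND. *Il6st* passed without ND CCL19-KI without ligature, replicate 2 (−0.22, adjusted p 0.0445). *Tnfrsf1b* passed without ND CCL19-KI with ligature, replicate 1 (0.31, 0.0401), and *Il18* without 60% HFD CCL19-KI without ligature, replicate 1 (−0.49, 0.0139). *Tnf* was tested through the libraries where it is high and is set aside here. Among ligatured mice alone 3 of the 7 other tested members passed, against 35.6% of all genes tested in that fit: *Il1rn*, *Il6st* at −0.28 (adjusted p 0.0321) and *Il18* at −0.78 (0.00154).

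Averaged over genotype and ligature, the milder diet moved fewer genes, but not in unligatured WT mice alone. For 40% HFD against ND, 0 of 9 members passed in limma, against 9.21% of all tested genes, and 0 in edgeR. In limma 1 member, *Il1b*, had an unadjusted p below 0.05, after meeting the filter through that diet. Between the HFDs, 60% against 40%, 0 of 9 members passed in limma, against 0.745% of genes, and 0 in edgeR. There, 2 members had an unadjusted p below 0.05, *Il1rn* at 1.33 (adjusted p 0.108) and *Tnf* at 0.31 (0.333). Without ND WT without ligature, replicate 1, the library with *Il1rn* at 19.5 CPM, *Il1rn* passed for 60% against 40% HFD at 1.33 (adjusted p 0.0474).

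Within each genotype and ligature, diet effects passed in 1 of 8 settings, CCL19-KI mice with ligature. There 60% HFD against ND raised *Il1rn* by 2.67 (SE 0.80, adjusted p 0.0302, limma) and lowered *Il18* by a log2 fold change of −0.94 (SE 0.32, adjusted p 0.0491). These were 2 of 9 members against 12.8% of all genes, and edgeR called both. Values of the 3 60% HFD and 3 ND mice did not overlap for 4 of 9 members, these 2 with *Il1r1* and *Il6st*, against 36.9% of all tested genes. The *Il1rn* call passed in 32 of 36 fits that left out 1 library; it ended without replicate 2 or 3 of the ND mice compared (2.62 and 2.56, adjusted p 0.103 and 0.0871) or replicate 1 or 2 of the 60% HFD mice (2.44 and 2.15, 0.121 and 0.119). The *Il18* call passed in 9 of 36, at −1.09 to −0.82 over all 36, with an adjusted p of up to 0.178. It was kept without replicate 2 or 3 of ND WT without ligature, 1 or 2 of ND CCL19-KI without ligature, 1 of 40% HFD WT without ligature, or 3 of 40% HFD CCL19-KI with ligature. It was also kept without replicate 1 of 60% HFD WT or 1 or 3 of 60% HFD CCL19-KI, both without ligature, and ended without any other library. The hepatocyte covariate ended both calls, with *Il1rn* at 1.77 (adjusted p 0.216) and *Il18* at −0.99 (0.0982), a fold change no smaller than reported. The *Il1rn* call also ended with the epididymis covariate (2.42, adjusted p 0.0782) and with a pseudocount of 5 (1.45, 0.0557). The *Il18* call also ended with the replicate block (−0.94, adjusted p 0.0533), a pseudocount of 0.1 (−1.05, 0.0514), no filter (0.0605) and quantile normalization (0.0579). Quantile normalization also called *Il6st* (−0.68, adjusted p 0.0287), and sample weights *Il1r1* and *Tnfrsf1b*, 4 of 9 members against 59.8% of all tested genes. Cell marker scores differed between the same groups. The mesothelial score was 7.01, 7.5 and 6.88 in ND and 4.11, 6.45 and 5.52 in 60% HFD mice, and that of lipid-associated macrophages 4.65, 4.63 and 4.53 against 6.78, 7.47 and 5.54. The smooth muscle score was 9.63, 8.87 and 3.58 in ND and 3.14, 3.00 and 4.23 in 60% HFD mice. The part of these cells in the calls was not tested.

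In the other 7 settings 0 of 9 members passed in limma. In WT mice with ligature, 60% HFD gave *Il1rn* 2.81 over ND (adjusted p 0.0546), against 2.57% of genes called and 3 members at an unadjusted p below 0.05. There edgeR called 1, *Il1rn* (4.49, adjusted p 0.0314), and limma called it without the 2 libraries (adjusted p 0.0352), with a pseudocount of 0.1 (3.82, 0.0306), a mean of at least 5 CPM (0.0476), quantile normalization (2.73, 0.0440) and the epididymis covariate (2.86, 0.0426). It passed by the study's cut-offs too, and with sample weights (2.54, adjusted p 0.00111), where 5 of 9 members did against 30.0% of all tested genes. Of these 5, *Tnf* (0.56, adjusted p 0.0346) was tested through the 60% HFD libraries and is set aside. With the hepatocyte covariate *Il1rn* was 2.49 (adjusted p 0.0646). It also passed in 6 of 36 fits without 1 library: replicate 1 or 2 of ND WT without ligature (adjusted p 0.0249 and 0.0480), replicate 1 of ND CCL19-KI without ligature (0.0483), and replicate 3 of 40% HFD CCL19-KI with ligature (0.0494), of 60% HFD CCL19-KI without (0.0402) or of 60% HFD CCL19-KI with ligature (0.0457). In the remaining settings edgeR called 0 members. For 60% HFD against ND without ligature, 3.41% of genes passed in WT and 10.2% in CCL19-KI mice, each with 2 members at an unadjusted p below 0.05. For 40% HFD against ND without ligature, 6.03% passed in WT, with 2 such members, and 0.0% in CCL19-KI mice, with 0. With ligature, 40% HFD gave 0.207% in WT, with 1 such member, and 4.92% in CCL19-KI mice, with 0. *Il18* in unligatured WT mice, 40% HFD against ND, was close at 0.99 (adjusted p 0.0586). It passed without ND CCL19-KI replicate 1 (0.0397), 40% HFD WT replicate 2 (1.10, 0.0462), or 60% HFD CCL19-KI replicate 1 (0.0271) or 3 (0.0244), all without ligature. It also passed with a mean of at least 5 CPM (adjusted p 0.0483) and by the study's cut-offs. In unligatured WT mice the mesothelial score was 5.68 to 6.10 on ND and 6.33 to 7.26 on 40% HFD. The part of mesothelial cells in this difference was not tested. In unligatured CCL19-KI mice, *Il18* passed for 60% HFD against ND without 60% HFD replicate 1 (−1.11, adjusted p 0.0207).

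**Figure D4:**
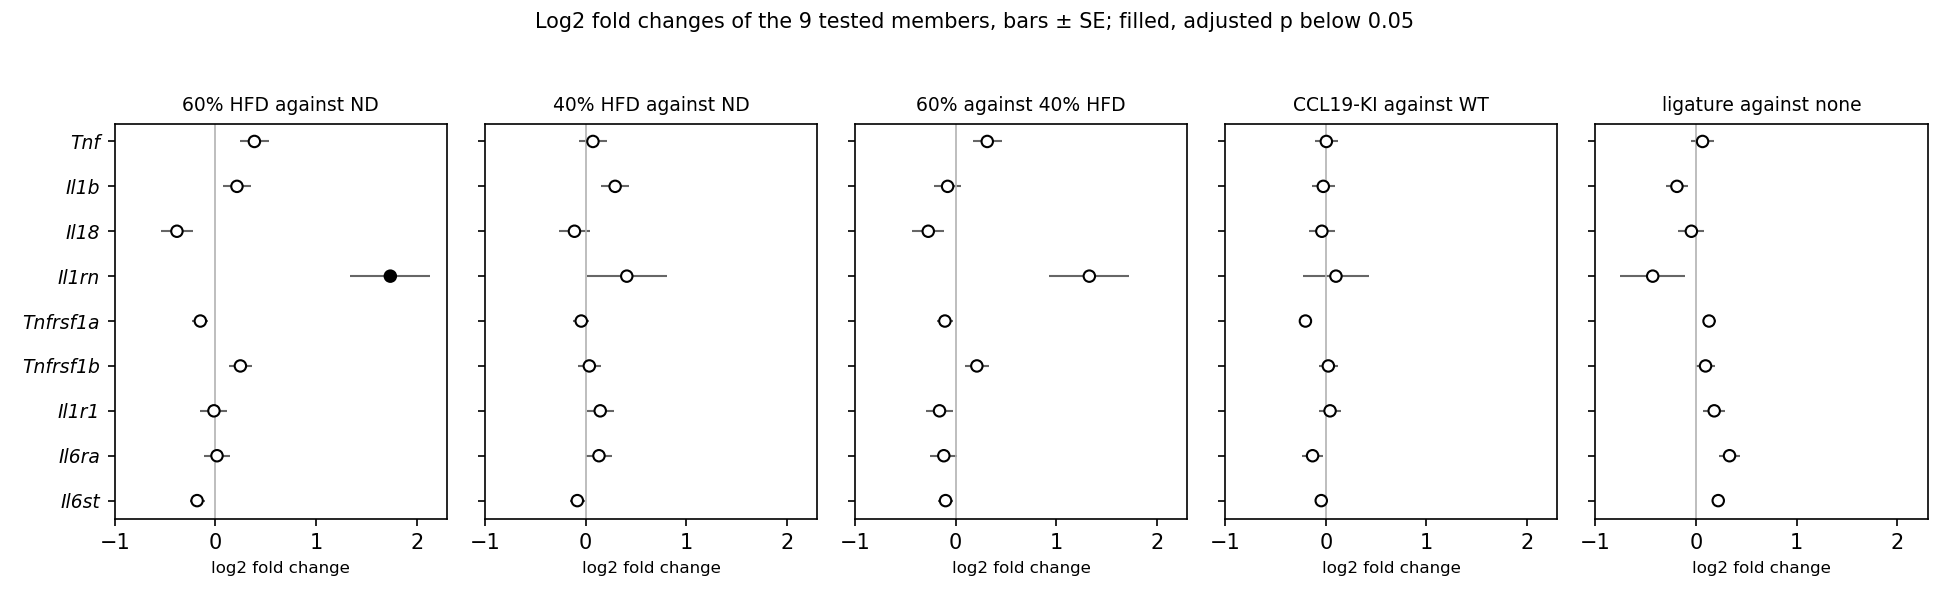
Log2 fold change of the 9 tested members in the 5 averaged comparisons, with bars of ± SE and filled points at an adjusted p below 0.05. *Il1rn* for 60% HFD against ND, at 1.74, is the filled point.

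The knock-in, averaged over diet and ligature, changed 0 of 9 members in limma, against 0.459% of all tested genes, and 0 members in edgeR. *Tnfrsf1a* had an unadjusted p below 0.05, the 1 member to do so, at −0.20 (adjusted p 0.122). Without the 2 libraries against their labels it passed at −0.23 (adjusted p 0.0356), as the number of all genes called went from 82 to 1288.

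Within diet and ligature, members passed between the genotypes in unligatured ND mice. There *Il18* was higher in CCL19-KI than WT mice by 0.98 (SE 0.32, adjusted p 0.0353, limma) and *Tnfrsf1a* lower, at −0.65 (SE 0.16, adjusted p 0.00982). These were 2 of 9 members against 16.6% of all genes, and edgeR called the same 2, at 1.15 (adjusted p 0.0287) and −0.62 (0.0167). Values of 3 and 3 mice did not overlap for these 2 members, against 28.1% of genes. Without the 2 libraries *Tnfrsf1a* was −0.75 (adjusted p 0.00615) and *Il18* 0.72 (0.0682). *Il18* also lost its call without ND WT replicate 1 (1.05, adjusted p 0.0625) or 2 (0.72, 0.145), or ND CCL19-KI replicate 1 (0.71, 0.120), 2 (1.15, 0.0813) or 3 (1.07, 0.0851), all without ligature. *Tnfrsf1a* lost its call without ND WT replicate 3 (−0.54, 0.0552) or ND CCL19-KI replicate 2 (−0.55, 0.0865) or 3 (−0.64, 0.0551), all without ligature. The epididymis covariate ended the call of *Il18* (0.72, adjusted p 0.115). The hepatocyte covariate ended both, at 0.89 (adjusted p 0.241) for *Il18* and −0.40 (0.258) for *Tnfrsf1a*. In these groups the hepatocyte score was 2.00, 2.02 and 2.13 in WT and 5.5, 10.88 and 10.96 in CCL19-KI mice. Mesothelial and adipocyte scores did not overlap either, while those of macrophages, lipid-associated macrophages, progenitors and endothelium did. The mesothelial score was 5.90, 5.68 and 6.10 in WT and 7.88, 6.40 and 6.30 in CCL19-KI mice. The adipocyte score was 10.48, 9.82 and 10.87 in WT and 9.69, 8.59 and 8.40 in CCL19-KI mice. The adipocyte list holds *Adipoq*, the host locus of the knock-in, which was itself lower in CCL19-KI mice. The part of mesothelial cells in the higher *Il18* and of adipocytes in the lower *Tnfrsf1a* was not tested. A fit of unligatured mice alone ended the call of *Il18* at the same fold change (0.98, adjusted p 0.122) and kept that of *Tnfrsf1a* (0.0412).

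In the other 5 combinations of diet and ligature 0 of 9 members passed between genotypes, in limma and in edgeR. The share of all genes called was 1.03% in ligatured ND mice, where *Il6ra* at −0.61 and *Il6st* at −0.35 had an unadjusted p below 0.05. It was 0.0056% in unligatured 40% HFD, 16.8% in unligatured 60% HFD (2998 genes, and 3263 without the 2 libraries), 0.0112% in ligatured 40% HFD and 0.0112% in ligatured 60% HFD mice, each with 0 members at an unadjusted p below 0.05. *Il6ra* passed in ligatured ND mice without WT replicate 3, at 63.4 CPM the low one of its group (−1.02, adjusted p 0.0318), and by the study's cut-offs for DEGs applied to the limma values. With sample weights 4 of 9 members passed in ligatured ND mice, against 42.3% of all tested genes: *Tnf* at 0.49 (adjusted p 0.0186, on 0 to 10 reads), *Il6ra* at −0.79 (0.000117), *Il6st* at −0.37 (0.000814) and *Tnfrsf1a* at −0.39 (0.000609). Over all alternatives, adjusted p there reached 0.944 for *Tnf*, 0.704 for *Il6ra*, 0.987 for *Il6st* and 0.954 for *Tnfrsf1a*. In ligatured ND mice 3 members did not overlap between genotypes, against 18.9% of genes. *Il6st* and *Tnfrsf1a* were lower in CCL19-KI. Between these groups the adipocyte score was 10.19 to 10.25 in WT and 9.01 to 9.67 in CCL19-KI mice. The smooth muscle score was 2.71 to 3.43 and 3.58 to 9.63, and that of skeletal muscle 1.17 to 1.49 and 3.08 to 6.13. The mesothelial score overlapped. The part of these cells was not tested. For *Tnf* the nearest values were 0.203 and 0.212 CPM, at 4 reads each, so a difference was not shown. In ligatured 60% HFD mice 1 did not overlap, *Il6st*, at 401, 442 and 390 CPM in WT and 370, 361 and 380 CPM in CCL19-KI, against 11.9% of genes. No member was free of overlap in unligatured 40% HFD (14.2% of genes), unligatured 60% HFD (30.7%) or ligatured 40% HFD mice (8.97%).

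The ligature was placed in the mouth 2 weeks before fat was taken. Averaged over diet and genotype, it gave 0 of 9 calls in limma, against 0.325% of all tested genes, and 0 in edgeR. At an unadjusted p below 0.05 there were 2, both parts of the IL-6 receptor: *Il6st* at 0.22 (SE 0.06, adjusted p 0.0996) and *Il6ra* at 0.33 (SE 0.11, adjusted p 0.141). *Il6st* averaged 428 ± 69.0 CPM with and 366 ± 45.6 CPM without ligature, and *Il6ra* 91.0 ± 25.1 and 71.7 ± 16.5 CPM (SD, n = 18). *Il6st* passed without ND CCL19-KI without ligature, replicate 1 (0.25, adjusted p 0.0372), or 40% HFD WT without ligature, replicate 2 (0.24, 0.0490). *Il6ra* passed without ND WT with ligature, replicate 3 (0.40, adjusted p 0.0316).

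Within each diet, ligature against none gave 0 of 9 calls in limma as well, against 1.29% of all tested genes on ND, 0.0% on 40% HFD and 0.0% on 60% HFD. On ND, 5 members had an unadjusted p below 0.05: *Il6st* at 0.37 (adjusted p 0.0727), *Il1rn* at −1.60 (0.144), *Il6ra* at 0.51 (0.167), *Il18* at 0.55 (0.205) and *Il1r1* at 0.46 (0.217). There edgeR called 1 member, *Il1rn* (−3.12, adjusted p 0.0315), and on the HFDs 0. In limma fits without 1 library *Il1rn* ran from −1.90 to −1.05 on ND (adjusted p 0.0681 to 0.402). On 40% HFD 0 members and on 60% HFD 1, *Il6ra* at 0.43 (adjusted p 0.511), had an unadjusted p below 0.05. On ND, *Il6st* passed without ND WT with ligature, replicate 3 (0.41, adjusted p 0.0490), ND CCL19-KI without ligature, replicate 1 (0.45, 0.0257), or 40% HFD WT without ligature, replicate 1 (0.37, 0.0425), and *Il6ra* without the first of these (0.71, 0.0231). With sample weights the 5 members named on ND passed, 5 of 9 against 40.1% of all tested genes. In ND WT mice the mesothelial score was 5.68 to 6.10 without and 7.28 to 7.52 with ligature. In ND CCL19-KI mice it overlapped, at 6.3 to 7.88 without and 6.88 to 7.5 with ligature. Within ND its r was 0.915 with *Il18*, 0.803 with *Il6st*, 0.6 with *Il6ra*, 0.503 with *Il1r1* and −0.511 with *Il1rn*. The part of mesothelial cells in these differences by ligature was not tested.

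Whether the effect of 1 factor differed by another was tested directly, and 0 of 9 members passed in any of 6 such differences, in limma or edgeR. For the genotype effect on 60% HFD minus ND, 0.476% of all genes passed, and *Il18* (−0.84, adjusted p 0.126) and *Tnfrsf1a* (0.39, 0.146) were the 2 members at an unadjusted p below 0.05. Without 60% HFD CCL19-KI without ligature, replicate 1, *Il18* passed there (−1.06, adjusted p 0.0406). For the ligature effect on 60% HFD minus ND, 0.0% of genes passed, and *Il1rn* (2.00, adjusted p 0.257) and *Il18* (−0.80, 0.254) were the 2 such members. Without the 2 libraries *Il18* passed at −0.90 (adjusted p 0.0457). For the ligature effect on 40% HFD minus ND, 0.0056% of genes passed and 1 member, *Il18* (−0.99, adjusted p 0.270), had an unadjusted p below 0.05. The genotype effect on 40% HFD minus ND had 0.0% of genes called and 1 such member. The genotype effect on 40% minus 60% HFD had 0.0%, and with minus without ligature 0.0056%, each with 0 such members. With sample weights 7 of 54 tests of members passed. For the ligature effect on 60% HFD minus ND these were *Il18* (−1.04, adjusted p 0.000921) and *Il1rn* (1.81, 0.0308), 2 of 9 members against 29.5% of all tested genes. On 40% HFD minus ND they were *Il18* (−1.04, adjusted p 0.00372) and *Il6st* (−0.37, 0.0439), against 14.1%. For the genotype effect they were *Tnfrsf1a* on 40% HFD minus ND (0.58, adjusted p 0.0031), 1 of 9 against 18.8%, and *Tnfrsf1a* (0.54, 0.00172) and *Il18* (−0.72, 0.00962) on 60% HFD minus ND, 2 of 9 against 34.2%.

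Genes of the TNF arm run from the ligands to the adaptors and kinases that carry the signal to NF-kB. Their share called on 60% HFD was near that of all tested genes, and the calls went both ways. Of 21 tested genes of 22 listed, *Lta* being below the filter, 3 rose and 2 fell in 60% HFD against ND, while 18.6% of all tested genes passed, and the list median was 0.05 against 0.01 over all genes. *Nfkbia*, the inhibitor that holds NF-kB in the cytoplasm, fell by a log2 fold change of −0.44 (SE 0.12, adjusted p 0.0123), from 54.8 ± 17.4 CPM in ND to 39.6 ± 9.68 CPM in 60% HFD mice (SD, n = 12). *Adam17*, the protease that sheds TNF and its receptors, rose by 0.40 (SE 0.11, adjusted p 0.0175). *Ikbkg*, the regulatory subunit of the IKK complex, rose by 0.33 (adjusted p 0.0350), and *Casp8*, the apical caspase of death receptors, by 0.27 (0.0482). In 40% HFD against ND, where 9.21% of all tested genes passed, 2 rose and 0 fell, *Ikbkg* at 0.38 and *Casp8* at 0.34 (adjusted p 0.0301 for both). The calls of *Casp8* ended in 25 of 36 fits without 1 library and 9 of 15 other alternatives for 60% HFD, and in 9 of 36 and 6 of 15 for 40% HFD. Those of *Ikbkg* ended in 8 of 36 and 6 of 15, and in 6 of 36 and 4 of 15. For 60% HFD that of *Adam17* ended in 3 of 15 alternatives and that of *Nfkbia* in 2 of 15, and their fold changes ran from 0.26 to 0.55 and from −0.66 to −0.30. In 60% against 40% HFD, CCL19-KI against WT and ligature against none, 0 passed in limma, with 2, 3 and 3 at an unadjusted p below 0.05.

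In the IL-1 and IL-18 arm *Il33* and *Irak2* moved in opposite directions on 60% HFD. Of 19 tested of 20 listed, *Il1r2* being below the filter, 1 rose and 2 fell in 60% HFD against ND, a share below the 18.6% of all tested genes, with a list median of 0.07 against 0.01 over all genes. The list does not hold the member *Il1rn*, which rose too. *Il33*, an IL-1 family alarmin of stromal cells in fat, fell by a log2 fold change of −1.11 (SE 0.25, adjusted p 0.00409), from 47.0 ± 21.0 CPM in ND through 27.4 ± 10.9 in 40% HFD to 23.2 ± 17.3 CPM in 60% HFD mice (SD, n = 12). It was −2.0 in a fit of ligatured mice alone (adjusted p 0.000573), −0.23 in one of unligatured mice alone (0.974), its extremes over the alternatives, and −0.87 without the 2 libraries (0.0143). *Irak2*, a kinase-like adaptor of IL-1 receptor signalling, rose by 0.69 (SE 0.12, adjusted p 0.000634), from 44.3 ± 17.1 CPM in ND to 70.4 ± 17.4 CPM in 60% HFD mice, and ran from 0.28 to 1.10 over the alternatives. *Casp4*, an inflammatory caspase, fell by a log2 fold change of −0.50 (adjusted p 0.0400), a call that ended in 14 of 36 fits without 1 library and 5 of 15 other alternatives. Those of *Il33* and *Irak2* for 60% HFD ended in 1 of 15, the unligatured mice alone. In 40% HFD against ND, where 9.21% of all tested genes passed, 2 rose and 0 fell. These were *Il1rap*, the co-receptor of IL-1R1, at 0.91 (SE 0.27, adjusted p 0.0363) and *Irak2* at 0.54 (0.00836). With the hepatocyte covariate *Il1rap* was −0.03, and its call ended in 12 of 36 fits without 1 library and 5 of 15 other alternatives, against 2 of 15 for *Irak2*. In the other 3 averaged comparisons 0 passed in limma, with 0, 1 and 3 at an unadjusted p below 0.05.

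In the IL-6 arm, 16 of 18 genes were tested, the ligands *Il11* and *Osm* being below the filter, and 2 rose and 1 fell in 60% HFD against ND, a share near the 18.6% of all tested genes, with a list median of −0.01 against 0.01. The member *Il6* is not in this list. *Jak1*, a kinase bound to gp130, rose by 0.29 (SE 0.06, adjusted p 0.00355), and *Lifr*, the receptor of leukaemia inhibitory factor, by 0.30 (0.0448). *Stat3*, the transcription factor that gp130 activates, fell by a log2 fold change of −0.27 (SE 0.08, adjusted p 0.0258), with diet means of 153 CPM in ND and 124 CPM in 60% HFD mice. Its call ended without ND CCL19-KI without ligature, replicate 2 (−0.22, adjusted p 0.0520), and in 2 of 15 other alternatives. That of *Lifr* ended in 17 of 36 fits without 1 library and 9 of 15 others, and that of *Jak1*, at 0.15 to 0.44, in 3 of 15 others. In 40% HFD against ND, where 9.21% of all tested genes passed, 2 rose and 2 fell. Among them were *Lifr* at 0.38 (adjusted p 0.0241) and *Cntfr*, the receptor of ciliary neurotrophic factor, at −0.48 (0.0474). The *Cntfr* call ended in 25 of 36 fits without 1 library and 13 of 14 other alternatives, and the *Lifr* call in 4 of 36 and 5 of 15. In the other 3 averaged comparisons 0 passed in limma, with 0, 1 and 1 at an unadjusted p below 0.05.

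Of the known target genes of NF-kB and STAT3, all 15 listed were tested, and 4 rose and 1 fell in 60% HFD against ND. Over all genes 18.6% passed, 1816 up and 1499 down. The targets had a list median of 0.20 against 0.01 over all genes. *Ccl2*, which draws monocytes into tissue, rose by 1.07 (SE 0.26, adjusted p 0.00784), from 3.22 ± 3.08 CPM in ND to 6.55 ± 2.45 CPM in 60% HFD mice (SD, n = 12). *Cxcl1*, a neutrophil attractant, rose by 0.70 (SE 0.16, adjusted p 0.00394), from 0.855 ± 0.645 to 1.94 ± 0.645 CPM. *Nos2*, the inducible nitric oxide synthase, rose by 0.44 (SE 0.13, adjusted p 0.0213), from 0.488 ± 0.315 to 1.06 ± 0.666 CPM. Its medians of 0.411 in ND, 0.818 in 40% HFD and 0.801 CPM in 60% HFD mice lay below the 1 CPM of the filter. Its highest ND value was 1.04 CPM, so its rise rests on low values and is a description. *Cebpd*, an early transcription factor of fat cell formation and of acute inflammation, fell by a log2 fold change of −0.67 (SE 0.15, adjusted p 0.00345), from 62.7 ± 25.5 to 38.6 ± 11.5 CPM. These 60% HFD calls ended in 1 of 14 alternatives for *Ccl2* (0.54 to 1.49), 2 of 14 for *Cxcl1* (0.25 to 1.26), 2 of 14 for *Nos2* (0.14 to 1.07) and 1 of 15 for *Cebpd*. In a fit of unligatured mice alone every gene named from the 4 lists for 60% or 40% HFD against ND lost its call. In 40% HFD against ND, where 9.21% of all tested genes passed, 1 rose, *Cxcl1* at 0.57 (adjusted p 0.0241). Its call ended in 2 of 36 fits without 1 library and 5 of 14 other alternatives. *Cebpd* was also the 1 target called for the ligature, against 0.325% of all tested genes, at 0.62 (SE 0.12, adjusted p 0.0234). It averaged 59.4 ± 22.1 CPM with and 38.0 ± 10.5 CPM without the ligature (SD, n = 18). In 60% against 40% HFD and in CCL19-KI against WT 0 passed in limma, with 2 at an unadjusted p below 0.05 in each.

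Genes whose levels ran most alike a member over the 36 libraries were found by Spearman's rho among all tested genes. For *Tnf* they were *Itgax*, the integrin CD11c of fat macrophages (rho 0.773), *Mmp12*, a macrophage elastase (0.752), and *Slamf7* (0.751). For *Il1rn* they were *Slc15a3* (0.888), *Fam83f* (0.856) and *Smap2* (0.855), and for *Il1b* *Prr14l* (0.714), *Cnot6l* (0.696) and *Ascc3* (0.696). For *Il18* they were *Cxadr* (0.894), *Lgals7* (0.881) and *Nkain4* (0.880). Among receptors, *Tnfrsf1a* ran with *Elk1* (0.857), *Phkg1* (0.838) and *Rras* (0.837), and *Tnfrsf1b* with *Dennd4c* (0.778), *Neurl3* (0.775) and *Lgmn* (0.766). *Il6st* ran with *Dync2li1* (0.791), *Smo* (0.763) and *Tbx18* (0.752), and *Il6ra* with *Npc1* (0.667), *Cyp2d22* (0.655) and *Foxo3* (0.651). *Il1r1* had the weakest neighbours, *Cept1* (0.614), *Vmp1* (0.612) and *Luc7l* (0.604).

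Members also ran with the marker genes of cell types, 1 list of the 11 being kidney tubules, scored as the mean log2(CPM + 1) of each list. Of 99 correlations of 9 members with 11 lists, 10 had an adjusted permutation p of r below 0.05. The permutations ran over all 36 libraries without regard to the 12 groups. These p therefore also reflect differences between groups, and r within groups is given without a p. *Il1rn* and *Tnf* followed the markers of lipid-associated macrophages, the TREM2-bearing cells that gather around dying fat cells. For *Il1rn* r was 0.815 and rho 0.736 (permutation p 1e-05 for both, the smallest that the permutations can give, adjusted p of r 0.000247). It was 0.759 without the 2 libraries farthest from the median score, 0.788 within groups, 0.825 without the 2 against their labels, and 0.596, 0.580 and 0.925 within ND, 40% HFD and 60% HFD. For *Tnf* r was 0.772 and rho 0.728 (permutation p 1e-05, adjusted p of r 0.000247), with 0.705 without the 2 farthest libraries, 0.791 without the 2 against their labels, 0.788 within groups, and 0.743, 0.443 and 0.863 within the diets. *Tnf* met the filter only through the 60% HFD libraries, where this score is high too. Its correlations with marker lists, here and below, are therefore descriptions and support nothing further.

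The lipid-associated macrophage markers rose with 60% HFD themselves. Their score averaged 4.74 ± 0.836 in ND, 5.05 ± 0.755 in 40% HFD and 6.25 ± 0.798 in 60% HFD mice (SD, n = 12), and was 7.09 in ND WT without ligature, replicate 1, the ND library with the highest *Il1rn* and *Tnf*. Of 7 markers 5 rose in 60% HFD against ND: *Atp6v0d2* by 2.86, *Itgax* by 2.14, *Gpnmb* by 2.00, *Spp1* by 1.52 and *Trem2* by 1.17, while 18.6% of all tested genes passed. The list median was 1.52 against 0.01 over all genes. Against 40% HFD 2 of 7 rose, with 0.745% of all genes called, and 0 passed in the other 3 averaged comparisons. Their summed level was 1072 to 11870 CPM, the most abundant gene was *Lpl*, which fat cells express too, and none of them was at 0 in any library. Of the general macrophage markers 2 of 8 rose, *Cd68* by 1.12 and *Adgre1* by 0.79, a share near the 18.6% of all genes. The part of these cells in the rise of *Il1rn* was not tested.

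In the groups of the *Il1rn* comparison hepatocyte scores varied too. In ligatured mice they were 9.07, 9.38 and 6.55 in ND WT, 8.74, 2.29 and 2.45 in ND CCL19-KI, 9.72, 9.29 and 10.95 in 60% HFD WT and 10.23, 9.94 and 7.29 in 60% HFD CCL19-KI. In unligatured mice they were 2.00, 2.02 and 2.13 in ND WT, 5.5, 10.88 and 10.96 in ND CCL19-KI, 9.14, 10.69 and 11.24 in 60% HFD WT and 5.64, 6.34 and 2.28 in 60% HFD CCL19-KI. The source of these markers was not tested, nor was their part in *Il1rn* beyond the covariate.

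*Il18* followed the markers of mesothelium, the cell layer that covers visceral fat, with r 0.814 and rho 0.868 (permutation p 1e-05, adjusted p of r 0.000247). It was 0.793 without the 2 farthest libraries, 0.851 without the 2 against their labels, 0.717 within groups, and 0.915, 0.720 and 0.746 within ND, 40% HFD and 60% HFD. The mesothelial score averaged 6.82 in ND, 6.46 in 40% HFD and 6.12 in 60% HFD mice, and 2 of 6 markers fell in 60% HFD against ND, *Upk1b* (−0.80) and *Wt1* (−0.81), against 18.6% of all tested genes, with *Upk3b* the most abundant. *Il6st* followed the same markers with r 0.589 and rho 0.632 (adjusted permutation p of r 0.00512), but r was 0.560 without the 2 against their labels and 0.173 within 60% HFD. The part of mesothelial cells in the levels of *Il18* was not tested.

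*Tnfrsf1a* followed the adipocyte markers, with r 0.788 and rho 0.711 (permutation p 1e-05, adjusted p of r 0.000247), 0.752 without the 2 farthest libraries, 0.791 without the 2 against their labels, 0.745 within groups, and 0.935, 0.733 and 0.666 within the diets. Their score had medians of 9.76, 10.1 and 9.80 in ND, 40% HFD and 60% HFD, and their summed level was 4222 to 24061 CPM. *Tnfrsf1b* followed the macrophage markers, with r 0.613 and rho 0.656 (adjusted permutation p of r 0.00158), 0.552 without the 2 farthest libraries, 0.719 without the 2 against their labels and 0.644 within groups, but 0.105 within 60% HFD. *Tnf* followed neutrophil markers less closely (r 0.544, rho 0.696, adjusted permutation p of r 0.0126). This and its correlation with T cell markers are descriptions only. The remaining 3 of the 10 were *Tnfrsf1a* with macrophages (r 0.489), *Il6st* with progenitors (0.480) and *Tnf* with T cells (0.483), at adjusted permutation p of 0.0291 to 0.0292. Without the 2 farthest libraries these r fell to 0.310, 0.358 and 0.308. Within 60% HFD they were 0.204, 0.510 and 0.219.

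The members did not move as a block. The antagonist *Il1rn* ran with *Tnf* (Spearman's rho 0.610 over 36 libraries) and *Il1b* (0.500), while *Tnf* and *Il1b* had a rho of 0.0654. *Il1rn* ran against *Tnfrsf1a* (−0.491) and *Il6st* (−0.464), and *Il6st* with *Tnfrsf1a* (0.487). The counts of markers that follow stand against 18.6% of all tested genes called for 60% HFD and 9.21% for 40% HFD, and lists this short are not read further. Neutrophil markers as a list had 1 of 4 tested genes called in 60% HFD against ND, *S100a8* at 1.70, and of the adipocyte markers *Lep* rose by 1.84, *Pparg* fell by a log2 fold change of −0.46 and *Retn* by −0.94. Endothelial markers rose in 3 of 5 in each HFD against ND, with list medians of 0.47 for both. Kidney tubule markers rose in 2 of 6 on 60% HFD and 0 on 40% HFD, and skeletal muscle markers fell in 1 of 5 and 3 of 5. In limma, 0 markers of progenitors and fibroblasts, B cells, T cells, mast cells, smooth muscle or epididymis passed in either comparison.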

How the data were processed

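The signal is CPM as deposited by the authors, who trimmed reads with Trimmomatic 0.38, quantified genes with Bowtie2 within RSEM 1.3.0 and normalized with edgeR; the labels name GRCm39 and the methods mm10, and other versions are not stated. All columns were used. Dividing each column by its smallest step gave whole reads for 100% of values (tolerance 0.01). Tests were limma 3.58.1 (lmFit and eBayes with trend, R 4.3.3) on log2(CPM + 1), 1 fit of 36 mice in 12 groups, 2-sided, with Benjamini-Hochberg adjustment over 17852 genes and calls at an adjusted p below 0.05. The other tool was edgeR 4.0.16 (quasi-likelihood) on recovered reads. Shares of all genes called are from limma, and none is given for edgeR. Permutation tests used 100000 permutations (Python 3.11.15, numpy 2.4.6, pandas 2.3.3, scipy 1.17.1). Members and lists were chosen with earlier results of these data known. Named genes were all 10 members, per pathway list up to 4 called genes with the largest absolute log2 fold change in 60% HFD against ND and up to 2 in the other averaged comparisons, and the 3 genes most alike each member by Spearman's rho; genes named from marker lists were chosen after their values were seen. Coordinates are from GENCODE M21. Marker lists covered macrophages, lipid-associated macrophages, neutrophils, adipocytes, progenitors, mesothelium, endothelium, T, B and mast cells, hepatocytes, epididymis, kidney, smooth and skeletal muscle. Alternatives were other pseudocounts (0.1, 5), filters, size factors, quantile normalization, a replicate block, sample weights, the cut-offs of the study for DEGs on the limma values (the study set them on edgeR output), ligatured or unligatured mice alone, 1 library left out, the 2 libraries left out, and marker scores as covariates.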

Additional observations from a re-analysis of the deposited data

How the results depend on the processing

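Of the counts of members called, 93 kept within 1.5 times their value under the alternatives that did not leave out 1 library each, and 34 did not. Of the other results, 1097 counted as unchanged. Fold changes kept direction and side of the threshold there, differences of *Il6* kept direction, and counts stayed within 1.5 times their value. A further 88 fell below the threshold, 20 passed it, 40 reversed and 87 counts moved. Leaving out the 2 libraries and the hepatocyte and epididymis marker scores as covariates were chosen after seeing the data, as were most alternatives for the diet and ligature effects within groups and the differences of effects, and sample weights for the genotype effects within groups. In each case below the cause was not tested, beyond the fewer mice in the separate fits.

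Where no share of all genes stands beside a count of members below, the count is a description only. Members called in 60% HFD against ND, 1 as reported, were 2 with a pseudocount of 0.1, 3 with quantile normalization and 5 with sample weights. They were 4 in ligatured mice (35.6% of all genes tested in that fit) and 0 in unligatured mice. They were 0 with the hepatocyte and 2 with the epididymis covariate, and 1 to 2 without 1 library. *Tnf*, tested through 60% HFD, is counted with a pseudocount of 0.1, with sample weights, in ligatured mice and in some fits without 1 library. Its calls support nothing. In 40% HFD against ND, 0 became 1 in ligatured mice. In 60% against 40% HFD, 0 became 1 by the cut-offs of the study for DEGs, here on limma values, and 1 with sample weights, and 0 to 1 without 1 library. In CCL19-KI against WT, 0 became 1 with sample weights and 1 without the 2 libraries. For the ligature, 0 became 3 with sample weights and 1 with the hepatocyte covariate, and 0 to 1 without 1 library. With sample weights, calls over all genes rose too for 60% HFD against ND, the knock-in and the ligature, as given below. Within diet and ligature, the 2 genotype calls became 6 of 54 with sample weights (19.2% of all gene tests), 1 without the 2 libraries, 0 with the hepatocyte and 1 with the epididymis covariate, 1 in separate fits of 18 ligatured and 18 unligatured mice, and 0 to 3 without 1 library. The 2 diet calls within genotype and ligature became 7 of 72 by these cut-offs (14.1% of all gene tests), 1 with a pseudocount of 5, 1 with no filter, 4 with a mean of at least 5 CPM, 1 with the replicate block, 19 of 72 with sample weights (31.7% of all gene tests), 0 with the hepatocyte covariate and 0 to 4 without 1 library. The 7 and the 19 include *Tnf* on 60% HFD, and the 19 also *Il1b* on 40% HFD, each tested through that diet. The differences of effects went from 0 to 4 of 54 by these cut-offs (8.15%), 7 of 54 with sample weights (18.0%), 1 without the 2 libraries, and 0 to 1 without 1 library. The ligature effects within diets went from 0 to 1 of 27 by these cut-offs (4.58%), 1 with quantile normalization, 5 of 27 with sample weights (14.2%), 1 by edgeR, 1 with the hepatocyte covariate, and 0 to 2 without 1 library.

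In the averaged comparisons the log2 fold changes below reversed, and among them *Il1rap* alone passed as reported. Values below the threshold within diet and ligature changed sign too, such as *Il1rn* between genotypes in unligatured ND (−1.04 to 1.05 over alternatives) and 60% HFD mice (−0.89 to 0.46) and *Il6st* in the latter (−0.12 to 0.41). In 60% HFD against ND, *Il1r1* was 0.0099 by edgeR, 0.1876 in unligatured mice and 0.0337 with the hepatocyte covariate (−0.1243 to 0.07 without 1 library). *Il6ra* was −0.099 with quantile normalization, −0.0241 with sample weights, −0.0077 by edgeR, −0.0252 in ligatured mice and −0.1613 with the hepatocyte covariate (−0.0856 to 0.0871), and *Il18* 0.0194 in unligatured mice. In 40% HFD against ND, the epididymis covariate gave *Tnf* −0.0554. Unligatured mice gave *Il1rn* −0.3473, *Il6st* 0.0405 and *Il18* 0.3862. Ligatured mice gave *Il1r1* −0.0671, *Il6ra* −0.0865 and *Tnfrsf1b* −0.1059. The hepatocyte covariate gave *Il1rn* −0.2501, *Il6ra* −0.1028, *Tnfrsf1a* 0.0781 and *Il1rap* −0.0347. Sample weights gave *Tnfrsf1a* 0.0182 (−0.07 to 0.0025 without 1 library), and *Tnfrsf1b* was −0.054 with quantile normalization and −0.0044 without the 2 libraries (−0.0058 to 0.1042). In 60% against 40% HFD, *Il6ra* was 0.0613 in ligatured mice, and *Il1b* −0.1454 to 0.0168 without 1 library.

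In CCL19-KI against WT, *Tnf* was −0.0007 with a pseudocount of 5, −0.0695 with quantile normalization and −0.0138 without the 2 libraries (−0.0433 to 0.0689 without 1 library). *Il1b* was 0.0868 with sample weights (−0.0634 to 0.0397). Unligatured mice gave *Il1rn* −0.0484 (−0.0091 to 0.284), *Il6st* 0.0279, *Il18* 0.1188 and *Tnfrsf1b* −0.0119. *Il1r1* was −0.0126 in ligatured mice and −0.0206 without the 2 libraries (−0.031 to 0.0986). *Il6st* was 0.0913 with quantile normalization, and *Il18* 0.0215 by edgeR (−0.1137 to 0.0377). *Tnfrsf1b* was −0.0227 with sample weights and −0.0206 without the 2 libraries (−0.0189 to 0.0626). For the ligature, *Tnf* was −0.0125 without the 2 libraries and −0.0429 with the epididymis covariate, and *Il18* −0.1218 to 0.0296 without 1 library.

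All-gene calls in 60% HFD against ND were 3315 as reported, 7846 with sample weights, 1764 by these cut-offs, 5923 in ligatured and 2 in unligatured mice, and 2201 with the hepatocyte covariate. Quantile normalization turned 1816 up and 1499 down into 1271 up and 2630 down. Sample weights gave 3795 in CCL19-KI against WT and 2258 for the ligature, against 82 and 58. With the replicate block, *Il1rn* in 60% HFD against ND had an adjusted p of 0.00411 and the counts of members called in the averaged comparisons and between genotypes were unchanged. Replicate numbers did not pair libraries: the median correlation was −0.0153 over 198 pairs of the same number and 0.0172 over 396 of other numbers.

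Limits: groups held 3 mice each, *Tnf*, *Il1b* and *Il6* rested on few reads, and levels of hepatocyte and epididymis markers differed between libraries of the same group. Genotype and breeding line cannot be told apart. Protein, cleavage of IL-1β and IL-18, and receptor shedding were not measured.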
